A study of Mus musculus with 12 samples.

Results

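The genes described here are 10 of the hypoxia response and of glucose breakdown, followed in bulk RNA-seq of the mouse large bowel: Hif1a, Slc2a1, Hk2, Pgk1, Ldha, Pdk1, Vegfa, Adm, Egln3 and Ndrg1. They were picked by symbol, as well-known parts or targets of the hypoxia pathway. All 10 were among the 17734 genes of the expression table, and all 10 were among the 15315 genes tested, whose level averaged 0.1 FPKM (fragments per transcript length and mapped reads, a level that can be set side by side between genes) or more over the 12 mice.

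Cells answer low oxygen mainly through hypoxia-inducible factor. Its alpha subunit, HIF-1 alpha, is made all the time, but while oxygen is present prolyl hydroxylases mark it for capture by the VHL protein and for destruction. When oxygen falls, the protein persists, pairs with ARNT, binds short DNA elements built around ACGTG or GCGTG and raises the transcription of genes for glucose uptake, glycolysis and vessel growth. The colon epithelium lies next to an oxygen-poor lumen and is known for low oxygen even in health, and inflamed mucosa is known to become more hypoxic. HIF-1 alpha is set largely by protein turnover, so the mRNA of Hif1a does not measure its activity.

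The study compared 4 groups of 3 male C57BL/6 mice aged 8 to 10 weeks. Normal mice drank water. Colitis was induced with 2.5% DSS (dextran sulfate sodium, which damages the colon lining) in drinking water for 7 days. Berberine (BBR), a plant alkaloid, was given by gavage at 100 mg/kg daily, both to otherwise untreated animals (normal + BBR) and to DSS-treated animals (colitis + BBR). The labels give 6 days of gavage and the study's methods give 7. The tissue is labelled colorectum, and the methods call it rectal. Whole tissue was sequenced, so fewer cells of a type and less RNA per cell cannot be told apart.

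Within each group 1 mouse, numbered 4, stood apart. The values of these mice summed to between 482194 and 504337, against 696286 to 765876 in the mice numbered 1 to 3, and in all 4 groups mouse 4 had the lowest Pgk1, Ldha and Ndrg1 of its group. Results are therefore also given without these mice. With 3 mice against 3, an exact two-sided permutation test cannot go below p = 0.1, so the tests below come from limma across all tested genes, on log2(FPKM + 0.1), with Benjamini-Hochberg adjustment over the 15315 genes. All fold changes are on that scale.

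The promoters of several of these genes carry the letters that HIF binds. They are shown because the members are grouped as a pathway through this element. RefSeq windows from 250 bases before to 50 bases after the gene start (mouse build GRCm38.p6) were matched for 9 of the 10 members (not Ndrg1), 12 windows in all. ACGTG or GCGTG on either strand (CACGT or CACGC when read on the gene's strand) was present in 10 of the 12 windows (83.3%), against 43.8% of all 32851 windows. At least 2 separate matches, with overlapping ones counted once, stood in 9 of the 12 windows (75.0%), against 17.3% of all windows. Vegfa and Pdk1 each had 1 of 2 windows without a match, and 218 of the 250 bases before the start in the matching Vegfa window lay under an annotated Vegfa exon. The 250 bases before the start are printed below 5′ to 3′ on the gene's strand for 4 members, with the matches in capitals: Pgk1 (chrX:106186850-106187099, + strand), Ldha (chr7:46845554-46845803, + strand), Hk2 (chr6:82774455-82774704, - strand) and Adm (chr7:110627407-110627656, + strand).
Pgk1: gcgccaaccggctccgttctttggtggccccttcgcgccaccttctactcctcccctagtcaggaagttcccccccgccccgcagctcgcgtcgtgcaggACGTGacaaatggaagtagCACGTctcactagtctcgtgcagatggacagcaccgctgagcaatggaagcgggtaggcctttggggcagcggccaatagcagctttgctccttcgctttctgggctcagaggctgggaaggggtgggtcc
Ldha: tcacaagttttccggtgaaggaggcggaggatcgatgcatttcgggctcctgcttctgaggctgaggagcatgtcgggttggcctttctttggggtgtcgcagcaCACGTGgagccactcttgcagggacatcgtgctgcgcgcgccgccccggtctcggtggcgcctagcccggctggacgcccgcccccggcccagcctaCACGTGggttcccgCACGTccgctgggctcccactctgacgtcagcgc
Hk2: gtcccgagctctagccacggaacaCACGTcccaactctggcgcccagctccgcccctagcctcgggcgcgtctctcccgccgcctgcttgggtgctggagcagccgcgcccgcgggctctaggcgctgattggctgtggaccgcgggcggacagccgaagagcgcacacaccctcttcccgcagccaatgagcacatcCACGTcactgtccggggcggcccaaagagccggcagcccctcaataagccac
Adm: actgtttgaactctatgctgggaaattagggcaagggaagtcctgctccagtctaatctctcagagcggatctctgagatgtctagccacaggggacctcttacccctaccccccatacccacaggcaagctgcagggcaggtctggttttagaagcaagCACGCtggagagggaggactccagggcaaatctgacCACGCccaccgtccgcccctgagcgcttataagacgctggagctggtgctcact
In Pgk1 the matches began 150 and 131 bases before the start, and in Adm 90 and 54 bases before it. Those of Ldha began 145, 48 and 34 bases before the start, the first and second being the palindrome CACGTG. In Hk2 they began 226 and 52 bases before the start. A match describes the letters of the reference and is no measurement of binding.

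Colitis was compared with normal tissue first. A higher mean log2 level in colitis was found for 9 of the 10 members (10 with quantile normalization or centring), against 26.2% of all tested genes, with a median log2 fold change of 0.77, while the median of all tested genes was -0.32. In 7 members (Hif1a, Slc2a1, Hk2, Pgk1, Adm, Egln3 and Ndrg1) every colitis mouse was above every normal mouse, which 7.1% of all tested genes also showed. None of the 10 passed the adjusted limit of 0.05 in limma, which 1.08% of tested genes did. The unadjusted p was 0.05 or less, the limit named in the study's methods, for 6 members, all of them higher, against 5.56% of tested genes in that direction. That count was 3 without normal mouse 4 and 3 without colitis mouse 2, and it was 4 without normal mouse 1 or colitis mouse 1. Of all tested genes at that limit, 26% were higher, a share that was 49.5% with quantile normalization and 53.7% after centring. Among mice numbered 1 to 3 alone, 8 of 10 members did not overlap and were higher, against 13.7% of tested genes.

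**Figure D1:**
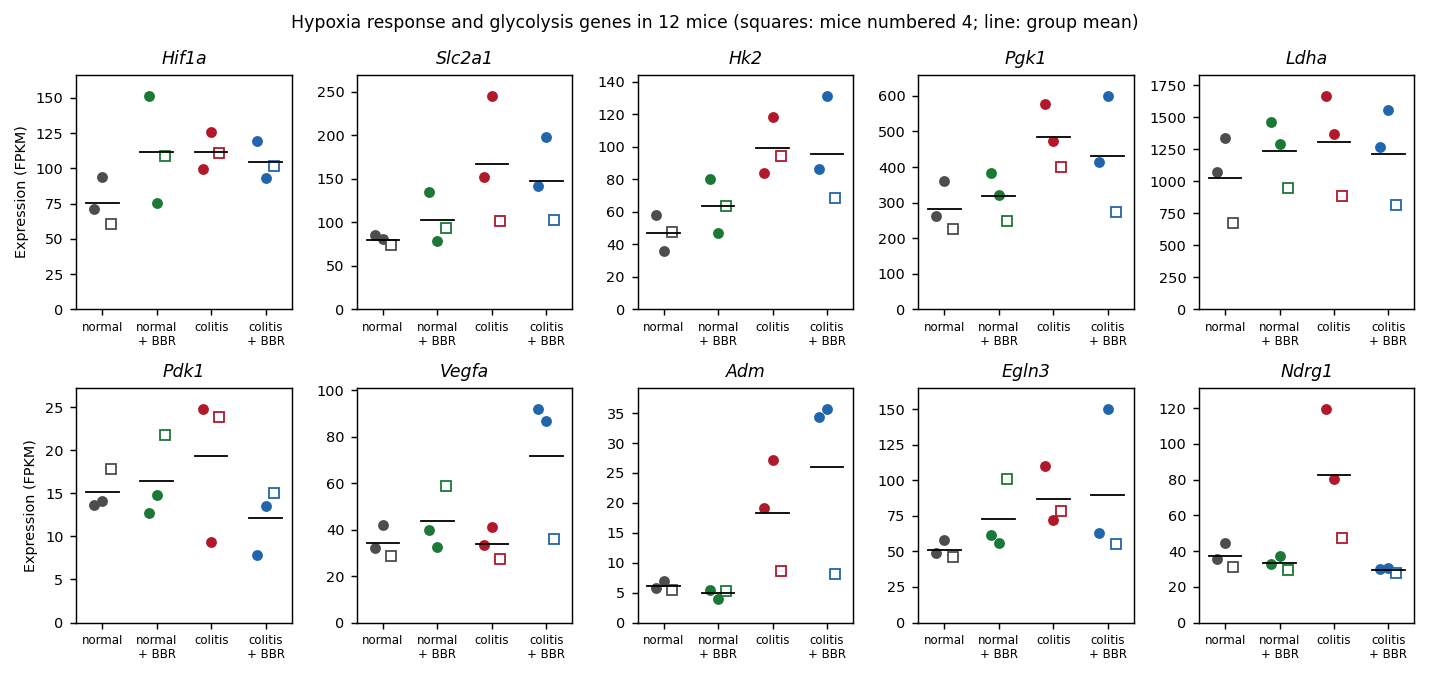
FPKM of each of the 10 genes (vertical axis, linear, from 0) in each mouse of the 4 groups (horizontal axis), with mice numbered 4 as open squares and the group mean as a line. In Ndrg1 the colitis + BBR mice lie between 27.9 and 30.3 FPKM and the colitis mice between 47.4 and 119, while in Adm both DSS-treated groups lie above both groups without DSS.

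Both regulators among the members, Hif1a and Egln3, were higher without overlap, as were 7.1% of all tested genes. Neither passed the adjusted limit in limma. Of the 7 other genes of the HIF system that were tested, described below, 6 were lower, where 26.2% of all tested genes were higher. Hif1a, which encodes HIF-1 alpha, was at 71.3, 93.9 and 60.5 FPKM in normal mice 1, 3 and 4 and at 99.2, 125 and 111 FPKM in colitis mice 1, 2 and 4. The groups did not overlap, although the highest normal mouse was close to the lowest colitis mouse. The log2 fold change was 0.59 ± 0.26 (SE, limma adjusted p = 0.221). Egln3, a prolyl hydroxylase that is itself a HIF target and acts as a brake, was at 48.7, 57.7 and 46.2 FPKM in normal mice and at 110, 72.0 and 78.2 FPKM in colitis mice. All 3 colitis mice were higher, with a log2 fold change of 0.75 ± 0.36 (limma adjusted p = 0.247).

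Of the genes for glucose entry and glycolysis, 3 of 4 were higher without overlap, as were 7.1% of all tested genes. Slc2a1, the glucose transporter GLUT1, was at 85.7, 80.9 and 73.6 FPKM in normal mice and at 153, 245 and 102 FPKM in colitis mice. The normal mice lay close together and the colitis mice spread widely above them, for a log2 fold change of 0.97 ± 0.34 (limma adjusted p = 0.145). Hk2, the hexokinase that traps glucose in the cell, was at 58.0, 35.9 and 47.4 FPKM in normal mice and at 84.0, 118 and 94.5 FPKM in colitis mice. It was 2.12-fold higher, a log2 fold change of 1.08 ± 0.29 (limma adjusted p = 0.0829). Pgk1, which makes ATP in lower glycolysis, was at 261, 362 and 227 FPKM in normal mice and at 577, 474 and 401 FPKM in colitis mice. Its log2 fold change was 0.78 ± 0.32 (limma adjusted p = 0.196). Ldha, which turns pyruvate into lactate and was the most abundant member, was at 1075, 1339 and 670 FPKM in normal mice and at 1667, 1366 and 881 FPKM in colitis mice. Its groups overlapped, and the 95% interval of the log2 fold change ran from -0.55 to 1.26. Pdk1, the kinase that keeps pyruvate out of the mitochondrial citric acid cycle, was at 13.6, 14.2 and 17.8 FPKM in normal mice and at 24.8, 9.33 and 23.9 FPKM in colitis mice. Colitis mouse 2 was below every normal mouse and the other two were above them, and the interval ran from -0.60 to 1.06.

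The secreted factors differed from each other. Adm, the vasodilator peptide adrenomedullin, was at 5.84, 7.01 and 5.49 FPKM in normal mice and at 19.1, 27.2 and 8.66 FPKM in colitis mice. Its log2 fold change was the largest estimate of the 10, 1.43 ± 0.53 (limma adjusted p = 0.164), and colitis mouse 4 was much nearer to the normal range than the others. Vegfa, the main vessel growth factor, was at 32.2, 42.0 and 28.6 FPKM in normal mice and at 33.2, 41.1 and 27.2 FPKM in colitis mice. The values nearly coincided, and the interval of the log2 fold change ran from -0.79 to 0.75. Its fold change of -0.02 turned to 0.11 with quantile normalization and 0.32 when each mouse was centred on its median.

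Ndrg1, a stress-response gene that low oxygen is known to raise in many cell types, was at 35.6, 44.5 and 31.1 FPKM in normal mice and at 119, 80.2 and 47.4 FPKM in colitis mice. Colitis mouse 4 was only just above the highest normal mouse. The log2 fold change was 1.07 ± 0.28 (limma adjusted p = 0.082). Without colitis mouse 4 the adjusted p from limma was 0.0283, in a fit where 1.38% of tested genes passed. Among mice numbered 1 to 3 the members past the adjusted limit in limma were Ndrg1 (0.0391) and Adm (0.0282), and 5.25% of tested genes passed. With the mice numbered 4 as a block in limma, Ndrg1 (0.0235), Hk2 (0.0409) and Pgk1 (0.0433) passed, as did 9.22% of tested genes.

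**Figure D2:**
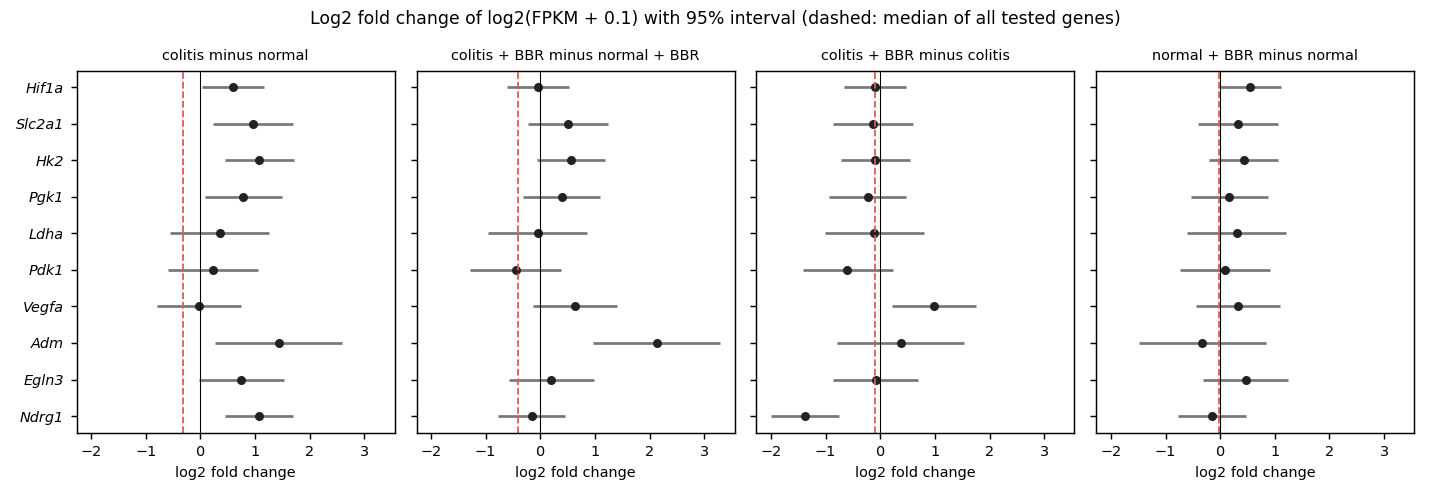
Log2 fold change of log2(FPKM + 0.1) with its 95% interval for each gene in 4 comparisons (horizontal axis, log2 units; 3 mice per group); the dashed line is the median of all tested genes. In colitis minus normal 9 of 10 points lie above 0, and in colitis + BBR minus colitis the intervals of Ndrg1 and Vegfa leave out 0, below and above it.

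BBR in colitis was the next comparison, and it shares its colitis mice with the first. Ndrg1 was at 30.2, 30.3 and 27.9 FPKM in colitis + BBR mice 2, 3 and 4, below all 3 colitis mice (47.4 to 119 FPKM) and below the lowest normal mouse (31.1 FPKM). It was 2.61-fold lower than in colitis, a log2 fold change of -1.38 ± 0.28, with an unadjusted p of 0.000412 and an adjusted p of 0.427 in limma. It was the 1 member of 10 whose groups did not overlap, where 5.66% of all tested genes did not overlap and were lower. In the mice numbered 4 alone the log2 difference was -0.76, and leaving out each mouse in turn kept it between -1.73 and -1.07. Among mice numbered 1 to 3 it was -1.69 (limma adjusted p = 0.342), where 22.2% of tested genes were lower without overlap. No member passed the adjusted limit in limma, nor did any of the 15315 tested genes (0%). The unadjusted p was 0.05 or less for 2 members, Ndrg1 and Vegfa, and for 6.39% of tested genes. That count of 2 was 1 without colitis mouse 4, colitis + BBR mouse 2 or colitis + BBR mouse 3.

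Vegfa went the other way. It was at 91.9 and 86.7 FPKM in colitis + BBR mice 2 and 3 and at 36.0 FPKM in mouse 4, against 27.2 to 41.1 FPKM in colitis. Mice 2 and 3 were above all other mice, and mouse 4 lay inside the colitis range. The log2 fold change was 0.98 ± 0.35, with an unadjusted p of 0.017 and an adjusted p of 0.631 in limma. Among mice numbered 1 to 3 it was 1.27 (limma adjusted p = 0.45), and those groups did not overlap, as in 6.97% of tested genes that were higher. Adm was at 34.3, 35.7 and 8.05 FPKM in colitis + BBR mice 2, 3 and 4, where mice 2 and 3 had the highest values of the 12 and mouse 4 was below every colitis mouse. Its interval ran from -0.79 to 1.54.

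The other 7 members overlapped between colitis and colitis + BBR, with unadjusted limma p-values from 0.144 to 0.826. Egln3 was at 63.2, 150 and 55.1 FPKM in colitis + BBR mice, so that 1 mouse was the highest of all 12 and 2 were below every colitis mouse. Hk2 was at 86.5, 131 and 68.2 FPKM, with 1 mouse inside the colitis range, 1 above and 1 below, and Slc2a1 at 141, 198 and 103 FPKM, all inside it. Their intervals ran from -0.72 to 0.54 and from -0.87 to 0.60, so differences of that size in either direction could not be told from none. Pgk1 was at 415, 600 and 275 FPKM and Ldha at 1269, 1558 and 815 FPKM, both with the lowest value in mouse 4. Pdk1, at 7.79, 13.6 and 15.0 FPKM, had a log2 fold change of -0.60 ± 0.38, and Hif1a, at 120, 93.3 and 102 FPKM, one of -0.09 ± 0.26. Of the 10 members, 8 were lower on the mean and 2 higher, where 38% of tested genes were higher. Those lower numbered 6 with quantile normalization and 3 after centring, so the direction of members near 0 depended on the scaling.

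In normal tissue, no member differed with BBR past the adjusted limit in limma, as no tested gene did (0%). An unadjusted p of 0.05 or less was found for 0 of 10, against 1.36% of tested genes. Adm, at 5.39, 3.95 and 5.26 FPKM in normal + BBR mice 1, 3 and 4, was below every normal mouse, which 5.46% of tested genes also were, but by a log2 fold change of only -0.33 ± 0.53. Hif1a, at 151, 75.4 and 109 FPKM, had the largest upward estimate, 0.54 ± 0.26, with mouse 3 inside the normal range. Egln3 in normal + BBR mouse 4 (101 FPKM) and Vegfa in the same mouse (58.9 FPKM) were well above the other two mice of the group. Ndrg1 was at 32.6, 37.1 and 29.5 FPKM, overlapping the normal mice.

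DSS in mice given BBR was compared with normal + BBR. Adm had the largest difference, 4.38-fold, a log2 fold change of 2.13 ± 0.53 with an unadjusted p of 0.00184 and an adjusted p of 0.201 in limma. It was the 1 member that did not overlap between these groups, higher under DSS, against 2.26% of all tested genes. Among mice numbered 1 to 3, 6 members were higher without overlap, against 8.08% of tested genes, and 1 was lower, against 58.8%. None of the 10 passed the adjusted limit in limma, against 0.0392% of tested genes, and Adm alone reached an unadjusted p of 0.05 or less, against 2.37% of tested genes that did so and were higher. With the mice numbered 4 as a block Adm passed (limma adjusted p = 0.0441), as did 1.75% of tested genes. Without colitis + BBR mouse 4, 3 members were higher at the unadjusted limit, against 3.87% of tested genes. In that fit Adm (0.0073) and Vegfa (0.0353) passed the adjusted limit in limma, but so did 14.7% of all tested genes. Ndrg1, which was 2.09-fold higher in colitis than in normal mice, had a log2 fold change of -0.16 ± 0.28 here. With quantile normalization and centring that value was 0.06 and 0.29. Slc2a1 and Hk2 were at 0.51 ± 0.34 and 0.56 ± 0.29, Hif1a and Ldha at -0.04 ± 0.26 and -0.05 ± 0.41, and Pdk1 at -0.45 ± 0.38. The values of Hif1a and Ldha turned positive under both scalings.

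Whether BBR altered the response to DSS was tested as the interaction of the 2 treatments. For Ndrg1 the DSS effect was lower under BBR by a log2 value of -1.23 ± 0.40, with an unadjusted p of 0.0101 and an adjusted p of 1 in limma. It was the 1 member with an unadjusted p of 0.05 or less, against 1.72% of tested genes in that direction. Of the 10 estimates, 8 were negative, while those of Vegfa (0.65 ± 0.50) and Adm (0.70 ± 0.75) were positive. No tested gene passed the adjusted limit (0%). Among mice numbered 1 to 3, 3 members were at the unadjusted limit in limma, against 3.39% of tested genes: Ndrg1 at -1.50 (unadjusted p = 0.00244), Vegfa at 1.30 (0.00302) and Adm at 1.08 (0.0188). The estimate for Egln3 went from -0.55 to -0.01 in that fit. The count of 1 was 0 after centring, 2 without normal + BBR mouse 3, colitis mouse 2 or colitis + BBR mouse 3, and 3 without colitis + BBR mouse 4.

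Genes of the same pathway outside the 10 were grouped by role. Of 21 other HIF targets, 15 were higher in colitis than in normal, as were 26.2% of all tested genes. At the unadjusted limit of 0.05, 8 were higher, against 5.56% of all tested genes, and the median log2 fold change of the list was 0.55. Ak4, a mitochondrial adenylate kinase, had a mean of 3.49 ± 1.87 FPKM (SD, n = 3) in normal and 37.9 ± 21.1 FPKM (SD, n = 3) in colitis, a log2 fold change of 3.38 ± 0.75 (limma adjusted p = 0.0566). Ero1a, an oxidase for protein folding, was at 20.0 and 53.6 FPKM on the mean (1.40 ± 0.34, limma adjusted p = 0.0698). None of the 21 passed the adjusted limit, while Ak4 did with quantile normalization (limma adjusted p = 0.0434). With the mice numbered 4 as a block, Ak4 (0.028) and Ero1a (0.0309) passed in limma, as did 9.22% of tested genes.

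Of the other glycolysis genes, 10 of 20 were higher in colitis, with a median of 0, where 26.2% of all tested genes were higher and their median was -0.32. Pfkfb3, which makes the activator of phosphofructokinase, was at 2.62 FPKM on the mean in normal and 19.9 in colitis (2.84 ± 0.81, limma adjusted p = 0.0997). Hk3, a hexokinase of blood cells, was low, at 0.313 FPKM on the mean in normal and 0.863 in colitis (1.18 ± 0.38). Ldhb, the partner subunit of lactate dehydrogenase, had a log2 fold change of -1.36 ± 0.54. With quantile normalization Hk3 passed (limma adjusted p = 0.0309), and 14 of the 20 genes were higher after centring.

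The HIF system itself, its subunits and hydroxylases, was lower in 6 of 7 genes tested, where 26.2% of all tested genes were higher, with a median of -0.45, near that of all tested genes (-0.32). Epas1, which encodes HIF-2 alpha, had a log2 fold change of -0.58 ± 0.23, Egln1, the main oxygen-sensing hydroxylase, -0.49 ± 0.23, and Vhl -0.49 ± 0.26. Genes of pyruvate entry into mitochondria were lower in 7 of 10, with a median of -0.41, which is near the background, as 26.2% of all tested genes were higher and their median was -0.32. The lowest p-values were those of Pdk2 (-1.45 ± 0.44) and Pdp2, a phosphatase of pyruvate dehydrogenase (-2.12 ± 0.70). Pdha1, a subunit of that enzyme, was at -0.60 ± 0.28. Of 13 genes for other VEGF family ligands or for receptors and partners of VEGF and adrenomedullin, 12 were lower and 1 was higher, where 26.2% of all tested genes were higher, and the median was -0.77, among them Ramp1 (-0.85 ± 0.26), Nrp2 (-1.78 ± 0.54) and Kdr (-1.27 ± 0.49). The 3 relatives of Ndrg1 were all lower, Ndrg2 at -1.09 ± 0.47, Ndrg3 at -0.94 ± 0.36 and Ndrg4 at -1.40 ± 0.64, whereas Ndrg1 was higher. None of the genes in these 4 lists passed the adjusted limit in limma. With the mice numbered 4 as a block, where 9.22% of tested genes passed, Epas1 (0.0496), Nrp2 (0.0235) and Vegfb (0.0285), a VEGF relative named after its values were seen, were past it and lower. With quantile normalization and centring the median of all tested genes moved from -0.32 to -0.05 and 0.02, and the medians of these lists came nearer to 0 but stayed negative, from -0.99 to -0.07.

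**Figure D3:**
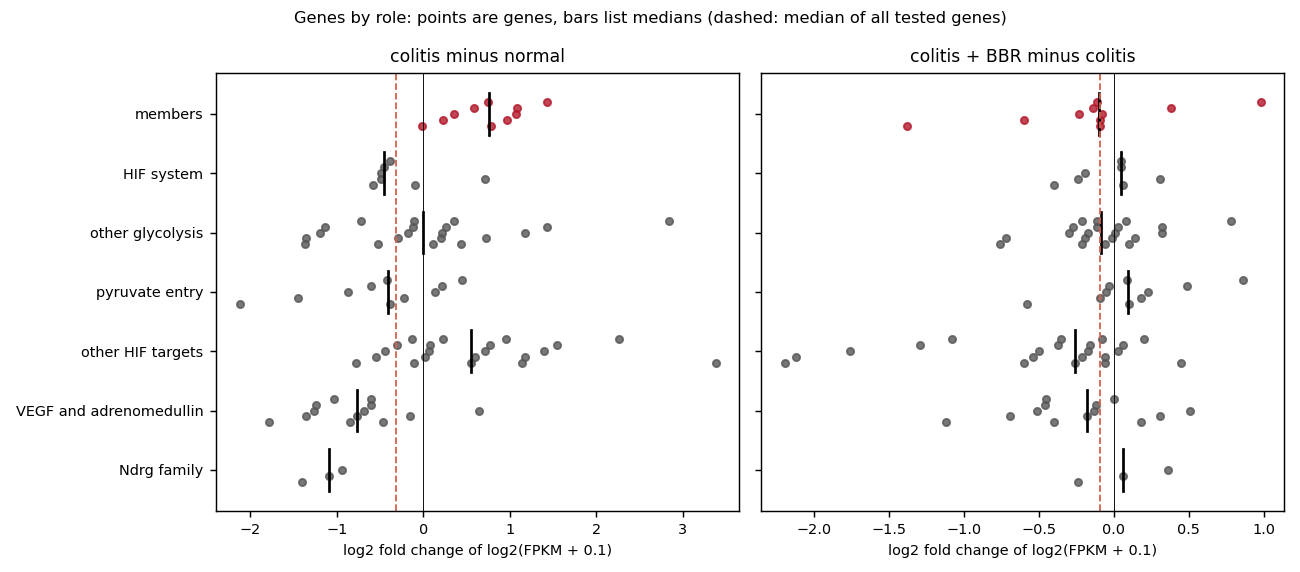
Log2 fold change of each gene (points) by role, with the median of each list as a bar and the median of all tested genes as a dashed line (horizontal axis, log2 units), for colitis minus normal and colitis + BBR minus colitis. In colitis the medians of the 10 members (red, 0.77) and of the other HIF targets (0.55) are to the right of those of the other lists, although single genes of the lists overlap widely, and under BBR these medians are -0.10 and -0.26.

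In colitis + BBR against colitis, 17 of the 21 other HIF targets were lower, where 38% of all tested genes were higher. The median of the list was -0.26, and that of all tested genes was -0.09. With quantile normalization and with centring, 14 of the 21 were lower. Ak4 had a log2 fold change of -2.12 ± 0.75 and Lox, a collagen crosslinking enzyme named after its values were seen, of -1.76 ± 0.63, with adjusted p-values of 0.619 and 0.631 in limma. Ero1a was nearly level at -0.21 ± 0.34, and Pfkfb3 ranged from 2.74 to 51.0 FPKM among the 3 colitis + BBR mice.

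Markers of the cell types in the tissue moved alongside. All 7 neutrophil markers were higher in colitis, with summed levels of 0.62 to 3.57 FPKM in normal, 47.7 to 499.6 in colitis and 3.04 to 219 in colitis + BBR. S100a8, a calcium-binding protein of neutrophils, was listed at 0 in all 6 mice without DSS and was the neutrophil marker past the adjusted limit (limma adjusted p = 0.0254). The 7 macrophage markers summed to 157 to 203 FPKM in normal, 262 to 792 in colitis and 138 to 279 in colitis + BBR. All 7 had a higher mean log2 level in colitis, as did 26.2% of all tested genes. Csf1r (0.03 ± 0.31) and Adgre1 (0.15 ± 0.38) were nearly level. Lyz2 had the largest estimate (1.39 ± 0.44) and the highest level of the 7. All 6 smooth muscle markers were lower in colitis, summing to 1628 to 3039 FPKM in normal and 70.9 to 651 in colitis. Endothelial markers summed to 21.5 to 28.7 FPKM in normal and 6.55 to 17.3 in colitis, while fibroblast markers overlapped, at 261 to 431 and 188 to 702. The sums of the colon epithelial markers overlapped, at 10500 to 17930 FPKM in normal and 7517 to 18000 in colitis, and were high in every mouse. Of these 8 markers, 5 were lower in colitis, a count that was 6 with quantile normalization and 3 after centring, where 26.2% of all tested genes were higher. The 1 marker without overlap was Slc26a3, at 803 to 1306 FPKM in normal and 361 to 547 in colitis (-1.22 ± 0.61, limma adjusted p = 0.26). Of the squamous markers, Sprr1a, a cornified envelope protein, had the highest level. Sprr1a was at 7.30 to 63.0 FPKM in normal, 4.44 to 167 in normal + BBR, 39.2 to 436 in colitis and 17.9 to 349 in colitis + BBR. The 7 others were at or below 5.18 FPKM in every mouse, and 3 of the 5 squamous markers tested were lower in colitis, a count that was 1 with quantile normalization and 0 after centring. The 3 red blood cell markers tested were all higher on the mean in colitis (median log2 fold change 1.82), but all 3 overlapped between the groups. Among mice numbered 1 to 3 the median was 3.87 and none overlapped, as in 13.7% of tested genes that were higher. In the mice numbered 4 the median log2 difference was -1.38, with sums of 56.3 FPKM in normal and 18.5 in colitis. Over all mice the sums were 4.44 to 56.3 FPKM in normal, 18.5 to 332 in colitis and 10.2 to 146 in colitis + BBR. With BBR in colitis, all 5 fibroblast markers were lower (median log2 fold change -1.10, sums of 176 to 256 FPKM in colitis + BBR). All 6 smooth muscle markers were higher on the mean (median 1.70), where 38% of all tested genes were higher. Their sums were 494, 475 and 3435 FPKM in colitis + BBR mice 2, 3 and 4, so only mouse 4 was above the colitis range. None of these passed the adjusted limit in limma. The part of these cell types in the levels of the 10 genes was not tested.

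Over all 12 mice, Ldha had the highest mean level (1200 FPKM, rank 81 of the tested genes), followed by Pgk1 (379), Slc2a1 (124), Hif1a (101), Hk2 (76.3), Egln3 (74.9), Vegfa (45.9), Ndrg1 (45.5), Pdk1 (15.8) and Adm (13.8). Neighbours such as Hk2 and Egln3, or Vegfa and Ndrg1, were much closer than the spread of either across mice. The order differed between groups: Pdk1 was above Adm in normal (means of 15.2 and 6.11 FPKM) and below it in colitis + BBR (12.1 and 26.0 FPKM). Vegfa was below Ndrg1 in colitis (33.9 and 82.3 FPKM) and above it in colitis + BBR (71.5 and 29.4 FPKM). Adm varied most, with an SD of 1.15 on the log2 scale, and Hif1a least, at 0.37, where the median gene had 0.52. By the smallest root mean square difference of centred log2 levels over the 12 mice, the gene most like Ndrg1 was Pcsk5 (0.33), that most like Slc2a1 was Plscr1 (0.17), and that most like Adm was Gchfr (0.31). For Egln3 it was Raph1 (0.20), for Vegfa Cyp2d34 (0.29) and for Hk2 Zdhhc13 (0.22), with Slc2a1 next (0.26).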

How the data were processed

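Bulk RNA-seq of 12 mice in 4 labelled groups of 3 was analysed. Per the study's methods, reads of 50 bases were filtered with SOAPnuke 1.5.2, aligned with Bowtie2 2.2.5 and quantified with RSEM 1.2.12 after rRNA depletion. The labels name another library kit. The processing notes name mm9, so the GRCm38.p6 coordinates come from the RefSeq tables and not from the files. The unit is not stated. The deposited values were read as FPKM made by the authors, 1 column per mouse, since columns sum to different totals. Counts were not used here, and low-value spacing gave only a rough depth, from 14.6 to 20.2 M reads, with no interval. Each numbered sample was taken as 1 mouse, and p-values measure the spread between these samples.

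Groups were compared with limma 3.58.1 (R 4.3.3) on log2(FPKM + 0.1), with 4 group means, trended variance, a mean of at least 0.1 FPKM and Benjamini-Hochberg adjustment over all 15315 genes. Other fits changed the pseudocount, filter, scaling, blocks or mice. The 10 genes and all lists were chosen with earlier results of these data known. All 10 were named, and from each list the 3 genes with the lowest p in colitis, except 1 that is not reported here. In data simulated for colitis against normal with 200 of 15315 genes changed, the test recovered 13 at a log2 fold of 1 and 129 at 2. Figures used matplotlib 3.10.9.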

Additional observations from a re-analysis of the deposited data

How the results depend on the processing

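No member passed the adjusted limit in the comparison of colitis with normal, but 2 did among mice numbered 1 to 3, 3 with the mice numbered 4 as a block, and 0 to 1 when each mouse was left out in turn. For colitis + BBR against normal + BBR the counts were 2, 1 and 0 to 2, and in both comparisons the highest of the last came without mouse 4 of the DSS-treated group. A fit with the replicate number as a block gave 1 member in colitis against normal (Ndrg1, limma adjusted p = 0.0492). It changed no other member's call at the adjusted limit. In that fit the log2 fold change of Ldha in colitis + BBR against normal + BBR turned from -0.05 to 0.02. Deviations of same-numbered mice correlated at 0.36 to 0.75 for number 4 and 0.08 to 0.39 for numbers 1 to 3. Those of differently numbered mice correlated at -0.53 to 0.46. The cause of these correlations was not tested. The main fit did not take the numbers as pairs, and the fits with a block are given beside it. Scaling moved the share higher among genes at the unadjusted limit from 26% to 49.5% (quantile normalization) and 53.7% (centred) in colitis against normal, from 18.6% to 43.5% and 46.1% for BBR in colitis, from 12.1% to 52.5% and 63.5% for DSS under BBR, and from 28.8% to 54.9% and 62.5% for the interaction. The tested genes past the adjusted limit in colitis against normal numbered 165, and 71 with a filter at a mean of 1 FPKM, 258 with quantile normalization, 734 with the replicate block, 1412 with mice numbered 4 as a block, 804 among mice 1 to 3 and 11 to 211 when each mouse was left out. For DSS under BBR they numbered 6, with 268 for the block of mice numbered 4, 2302 among mice 1 to 3 and 0 to 2255 when each mouse was left out (2255 without colitis + BBR mouse 4), and for BBR in colitis 0, with 4 at a pseudocount of 1 and 58 without colitis + BBR mouse 3.

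Members near 0 changed sign. In colitis against normal, Vegfa was at 0.11 with quantile normalization, 0.32 centred and 0.01 among mice 1 to 3. For BBR in colitis, quantile normalization gave 0 for Ldha and 0.01 for Egln3, centring gave 0.06 for Hif1a, 0.02 for Slc2a1, 0.06 for Hk2, 0.05 for Ldha and 0.07 for Egln3, and mice 1 to 3 gave 0.1 for Hk2 and 0.13 for Egln3. For BBR in normal, mice 1 to 3 gave -0.02 for Pdk1 and -0.03 for Vegfa. For DSS under BBR, quantile normalization gave 0.02 for Hif1a, 0.03 for Ldha and 0.06 for Ndrg1, centring gave 0.41, 0.4 and 0.29, and mice 1 to 3 gave 0.03 for Ldha. Leaving out 1 mouse at a time, the range was -0.01 to 0.69 for Pdk1 and -0.17 to 0.14 for Vegfa in colitis against normal. For BBR in colitis it was -0.44 to 0.19 for Slc2a1, -0.35 to 0.12 for Hk2, -0.5 to 0.06 for Pgk1, -0.36 to 0.16 for Ldha, -0.09 to 1.08 for Adm and -0.53 to 0.19 for Egln3. For BBR in normal it was -0.13 to 0.25 for Pdk1, and for DSS under BBR -0.3 to 0.21 for Hif1a, -0.26 to 0.21 for Ldha and -0.25 to 0.47 for Egln3. The pseudocount and the filters changed no member's sign, and no member's call at the adjusted limit.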
